A study of Mus musculus with 7 samples.

Results

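The matrix metalloproteinases (Mmp), the Adamts proteases, the Adamts-like proteins (Adamtsl) and the tissue inhibitors of metalloproteinases (Timp) were followed across mouse skin. Every gene was taken whose symbol is one of these 4 stems followed by a digit, with Mmp1a and Mmp1b included. This gave 51 of the 22552 genes in the expression table: 23 Mmp, 19 Adamts, 5 Adamtsl and 4 Timp genes. The rule uses symbols and no measured value.

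The Mmp and Adamts genes encode zinc-dependent proteases that are secreted or held at the cell surface, and most are made as inactive proenzymes. Between them they cut fibrillar collagens, basement membrane proteins and proteoglycans, and some Adamts enzymes trim procollagens so that fibrils can form. The Timps bind and block these enzymes, while the Adamts-like proteins resemble Adamts enzymes without a protease domain and bind the matrix. In skin the families are known for matrix turnover by dermal fibroblasts, for wound repair and for the growth phase of hair follicles.

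Skin cells were isolated by flow sorting and their total RNA was sequenced in 7 libraries, 1 per group, from CD1/C3H mice at postnatal day 50. Dermal and epidermal cells came from the ear of Wt/Koa mice, here called Koa, and from the ear and the dorsal skin of Wt/Wt mice, here called WT. Dermis of the tail of Wt/Wt mice made the seventh library, and its labels give no cell type. Koa is a dominant allele with an inversion on chromosome 15 and hairy ears, and it was present in 1 copy. The unit is FPKM, which corrects fragment numbers for transcript length and library size, so levels can be set beside each other between genes. Differences were taken as log2(FPKM + 1) of 1 library minus another, among genes at 1 FPKM or more in at least 1 of the pair. Genes 1 or more apart on that scale are called higher or lower. Each comparison sets 1 library against 1, so it has no test, p-value or replicate check, and no difference here is shown to exceed the variation between animals.

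Depth recovered from the steps of low values lay between 31.3 and 40.0 mega fragments (M) in 6 libraries. As a check of the labelled layers, the 8 fibroblast markers stood in epidermis at a median 0.208% (WT ear), 0.215% (Koa ear) and 0.517% (dorsal) of their level in the matching dermis. The 8 basal keratinocyte markers stood in dermis at a median 7.16% of their epidermal level in WT ear, 10.7% in Koa ear and 37.7% in dorsal skin. The tail library stands apart. Its values carry at most 2 decimals, and 0 is given there for 222 of the 4885 genes that reach 10 FPKM in each of the other 6. Xist stood at 41.5 FPKM there against 0.0381 to 0.122 elsewhere, and Ddx3y at 0 against 33.1 to 38.3. Its depth could not be recovered. In bulk RNA, fewer cells of a type and less RNA per cell cannot be told apart.

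The genes lie on 18 chromosomes, with 13 on chromosome 9. On that chromosome, 10 Mmp genes fill 427 kb at chr9:7272514-7699585 (GRCm38.p6, RefSeq) and are the only protein-coding genes annotated there. Their order is Mmp13, Mmp12, Mmp1b, Mmp3, Mmp1a, Mmp10, Mmp8, Mmp27, Mmp20 and Mmp7. The 120 bases before the annotated start of 5 of them are shown because Mmp3, Mmp10, Mmp13 and Mmp1b had higher values in both ear epidermal libraries than in dorsal epidermis, while Mmp27 was dermal. Capitals mark the AP-1 letters TGAGTCA, or their reverse complement TGACTCA, and the TATA box letters TATAAA. AP-1 is the dimer of Fos and Jun proteins. Each sequence is from RefSeq, 5′ to 3′ on the strand of the gene.
Mmp13, chr9:7272394-7272513, plus strand: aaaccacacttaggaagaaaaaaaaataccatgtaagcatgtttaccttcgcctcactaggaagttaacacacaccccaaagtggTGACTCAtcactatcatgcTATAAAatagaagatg
Mmp1b, chr9:7388027-7388146, minus strand: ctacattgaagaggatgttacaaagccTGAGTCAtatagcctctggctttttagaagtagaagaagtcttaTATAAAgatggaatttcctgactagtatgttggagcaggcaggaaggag
Mmp3, chr9:7445702-7445821, plus strand: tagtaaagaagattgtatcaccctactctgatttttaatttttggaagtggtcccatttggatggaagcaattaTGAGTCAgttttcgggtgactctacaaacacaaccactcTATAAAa
Mmp10, chr9:7502222-7502341, plus strand: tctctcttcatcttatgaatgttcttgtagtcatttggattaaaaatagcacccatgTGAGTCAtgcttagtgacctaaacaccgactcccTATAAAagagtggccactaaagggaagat
Mmp27, chr9:7571276-7571395, plus strand: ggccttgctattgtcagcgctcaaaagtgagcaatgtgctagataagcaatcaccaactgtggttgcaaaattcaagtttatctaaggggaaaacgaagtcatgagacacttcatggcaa

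Of the 51 genes, 36 had such a window in the RefSeq table used. The 250 bases before each start were searched on both strands. The AP-1 letters stood in 7 of the 10 clustered genes (Mmp13, Mmp12, Mmp1b, Mmp3, Mmp1a, Mmp10 and Mmp7) and in 0 of the other 26. They stood in 4.46% of all 32851 windows of that length. TATAAA or its reverse complement stood in 7 of the 10 clustered genes and in 3 of the other 26 (Adamts1, Adamtsl2 and Mmp21), against 12.4% of all windows. These matches describe letters in a window and show no binding. Mmp7 holds both and was listed at 0 in all 7 libraries, and Mmp27 holds neither and reached 87.0 FPKM.

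The families were expressed mainly in dermis. In the 4 dermal libraries 32 to 38 of the 51 genes reached 1 FPKM, and in the 3 epidermal libraries 13 to 17 did. These are 62.7% to 74.5% and 25.5% to 33.3% of the 51, beside 51.5% to 60.3% and 51.4% to 53.8% of all genes. Over all libraries 42 genes reached 1 FPKM somewhere and 32 reached 5 FPKM. The 10 genes that peaked between 1 and 5 FPKM were Adamts6, Adamts8, Adamts18, Adamts19, Adamts20, Mmp10, Mmp12, Mmp13, Mmp17 and Mmp25, with highest values from 1.07 to 4.40 FPKM. The 9 genes under 1 FPKM everywhere were Adamts13, Adamts16, Mmp1a, Mmp1b, Mmp7, Mmp8, Mmp20, Mmp21 and Mmp24. Among the 42 genes, 18 had their highest value in tail dermis, and 11 had it in Koa ear dermis. The share of all genes that peak in each library was not taken, so these counts show nothing particular to the families.

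**Figure D1:**
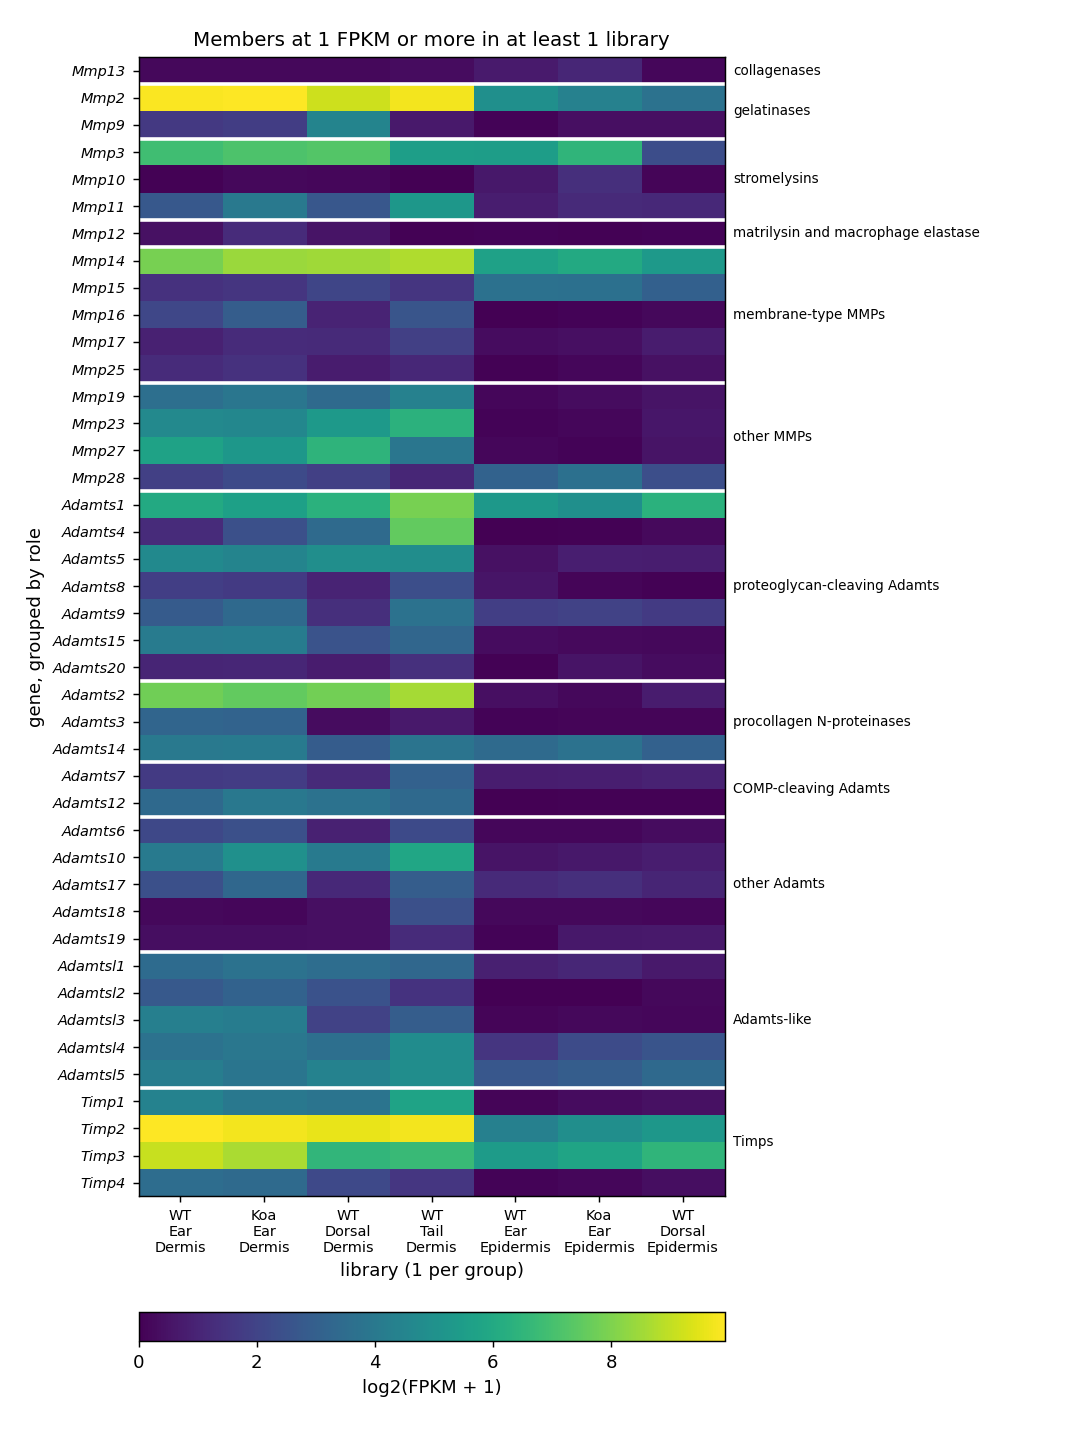
Colour shows the level as log2(FPKM + 1) of the 42 genes at 1 FPKM or more somewhere (rows, grouped by role) in each of the 7 libraries (columns, 1 per group). Most rows are bright in the 4 dermal columns and dark in the 3 epidermal ones. Mmp15 and Mmp28 run the other way.

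Mmp2 and Timp2 were the most abundant genes of the families in dermis. Timp2 together with Mmp14, a protease anchored in the cell membrane, is known to bind and activate the proenzyme of Mmp2, gelatinase A. Mmp2 stood at 932 FPKM in WT ear dermis, 972 in Koa ear dermis, 577 in dorsal dermis and 870 in tail dermis, against 30.2, 19.4 and 12.5 in WT ear, Koa ear and dorsal epidermis. Timp2 stood, in the same order of libraries, at 955, 864, 776 and 854 FPKM in dermis and at 19.3, 29.2 and 37.0 in epidermis. Mmp14 stood at 235, 343, 367 and 427 FPKM in dermis and at 50.0, 64.0 and 39 in epidermis. For each of the 3, every dermal value lay above every epidermal value. The levels below follow the same order of libraries.

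Among the other Mmp genes of dermis, Mmp23 and Mmp27 were nearly absent from epidermis. Mmp23, an enzyme with a membrane anchor at its amino end, stood at 24.2, 23.2, 40.9 and 82.0 FPKM in dermis and at 0.0805, 0.138 and 0.513 in epidermis. Mmp27 stood at 51.1, 37.5, 87.0 and 13.8 FPKM in dermis and at 0.119, 0.0777 and 0.435 in epidermis. Tail dermis thus held the highest Mmp23 and the lowest dermal Mmp27. Mmp19 stood at 11.5, 13.7, 9.90 and 19.7 FPKM in dermis and did not exceed 0.422 in epidermis. Mmp11, stromelysin 3, stood at 5.57, 15.3, 5.46 and 36.7 FPKM in dermis and at 0.751, 1.28 and 1.21 in epidermis. Mmp16, a second membrane-type enzyme, stood at 3.28, 6.59, 1.01 and 5.06 FPKM in dermis and did not exceed 0.166 in epidermis. Mmp11 and Mmp16 both had a higher value in Koa than in WT ear dermis. Mmp9, gelatinase B, stood at 2.11, 2.45, 21.2 and 0.590 FPKM in dermis and did not exceed 0.333 in epidermis, so that dorsal dermis was alone above 5 FPKM.

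Mmp15 and Mmp28 were the 2 genes whose 3 epidermal values all lay above their 4 dermal values. Mmp15 is a membrane-type enzyme, and Mmp28, epilysin, is known from epithelia. Mmp15 stood at 12.2, 11.8 and 7.25 FPKM in epidermis and between 1.69 and 3.19 in dermis. Mmp28 stood at 7.75, 11.5 and 4.27 FPKM in epidermis and between 1.08 and 3.70 in dermis. From WT ear to dorsal epidermis the differences were -0.67 for Mmp15 and -0.73 for Mmp28 on the log2(FPKM + 1) scale, short of the threshold. Mmp28 overlaps an opposite-strand gene, 1700020L24Rik, which was itself at 12.2, 18.4 and 11.6 FPKM in epidermis.

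The Adamts genes are given here by role, and genes of the same role differed in layer and position. Of the procollagen N-proteinases, which remove the amino propeptide of fibrillar procollagens, Adamts2 stood at 218, 187, 221 and 388 FPKM in dermis and did not exceed 0.669 in epidermis. Adamts14, of the same role, was close to even across layers, with 15.0, 15.4, 6.50 and 13.2 FPKM in dermis and 9.86, 12.3 and 7.36 in epidermis. Adamts3, the third, stood at 8.45 and 7.97 FPKM in WT and Koa ear dermis, at 0.247 in dorsal and 0.60 in tail dermis, and did not exceed 0.0956 in epidermis. Only in ear dermis did Adamts3 reach 1 FPKM.

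Of the proteases that cut proteoglycans such as aggrecan and versican, Adamts1 was high in both layers. It stood at 64.4, 48.7, 79.2 and 239 FPKM in dermis and at 38.0, 30.0 and 79.7 in epidermis. Adamts5 stood at 25, 21.2, 28.7 and 28.1 FPKM in dermis and did not exceed 0.771 in epidermis. Adamts4 stood at 1.36, 4.33, 9.77 and 184 FPKM in dermis and did not exceed 0.191 in epidermis. Adamts5 thus kept within a narrow range over the 4 dermal libraries, while the tail value of Adamts4 was 135 times its WT ear value. Adamts9 stood at 6.26, 9.47, 1.5 and 12.2 FPKM in dermis and at 2.62, 2.88 and 2.22 in epidermis. Adamts15 stood at 16.4, 17.2, 4.80 and 8.81 FPKM in dermis and did not exceed 0.264 in epidermis. Both were lowest, within dermis, in dorsal skin.

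Adamts7 and Adamts12 are known to cut cartilage oligomeric matrix protein. Adamts12 stood at 9.48, 14.8, 12.4 and 9.53 FPKM in dermis and did not exceed 0.0419 in epidermis. Adamts7 stood at 2.21, 2.38, 1.29 and 7.55 FPKM in dermis and at 0.722, 0.796 and 0.945 in epidermis, and it overlaps Tbc1d2b on the other strand, a gene at 18.1 to 28.7 FPKM. Adamts10 and Adamts17, both linked to fibrillin microfibrils by inherited disease, had higher values in Koa ear and tail than in WT ear dermis. Adamts10 stood at 15.8, 30.6, 15.4 and 57.5 FPKM in dermis and did not exceed 0.736 in epidermis. Adamts17 stood at 4.32, 9.04, 1.22 and 6.69 FPKM in dermis and at 1.30, 1.5 and 1.06 in epidermis.

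Every Adamts-like gene had all 4 dermal values above its 3 epidermal values. Adamtsl1 stood at 10.1, 12.2, 10.7 and 8.88 FPKM in dermis and at 0.839, 1.08 and 0.595 in epidermis. Adamtsl2 stood at 5.84, 7.68, 4.64 and 1.75 FPKM in dermis, was listed at 0 in both ear epidermal libraries and was at 0.145 in dorsal epidermis. Adamtsl3 stood at 18.2, 17.2, 2.88 and 6.52 FPKM in dermis and did not exceed 0.155 in epidermis. Adamtsl3 was therefore an ear-high gene, while Adamtsl1 was level over the dermis. Adamtsl4 stood at 12.2, 14.4, 11.4 and 27.3 FPKM in dermis and at 1.90, 3.82 and 4.98 in epidermis. Adamtsl5 stood at 17.6, 13.5, 20.3 and 28.1 FPKM in dermis and at 5.45, 6.64 and 9.64 in epidermis.

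Of the inhibitors, Timp3, which stays bound to the matrix and also blocks aggrecan-cleaving Adamts enzymes, differed most by position. Timp3 stood at 539, 405, 91.1 and 106 FPKM in dermis and at 43.2, 54.5 and 89.5 in epidermis. The dermal and epidermal values nearly met in dorsal skin and lay far apart in ear. Timp1 stood at 20.1, 14.7, 13.2 and 52.9 FPKM in dermis and did not exceed 0.370 in epidermis. Timp4 stood at 10.6, 9.83, 3.57 and 1.96 FPKM in dermis and did not exceed 0.287 in epidermis. Exons of Timp3 and Timp4 each overlap a synapsin gene on the other strand. Syn3 reached at most 0.584 FPKM and Syn2 at most 1.79.

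Within WT ear, 30 of the 36 genes past the low-value filter were higher in dermis than in epidermis and 2 were lower. Of all genes tested, 21.3% were higher and 14.4% lower. The median difference of the 36 was 2.2 on the log2 scale, and that of all genes was -0.09. In dorsal skin 22 of 32 were higher and 0 lower (all genes 16.1% and 8.27%), with a median of 2.31 beside -0.14. Basal keratinocyte markers stood in dorsal dermis at 37.7% of their epidermal level, beside 7.16% in WT ear. Their part in the dorsal counts was not tested. In Koa ear 29 of 40 were higher and 3 lower (20.4% and 12.7%), with a median of 2.38 beside -0.11. The 3 lower there were Mmp15, Mmp28 and Mmp10. With a pseudocount of 5, 1 gene was lower in WT ear and 1 in Koa ear. Across libraries, 30 of the 42 genes at 1 FPKM somewhere had all 4 dermal values above all 3 epidermal values, as did 21.1% of all such genes. The 2 with the reverse order compare with 26.4% of all genes. The remaining 10 overlapped between layers: Adamts1, Adamts9, Adamts14, Adamts17, Adamts18, Adamts19, Mmp3, Mmp10, Mmp12 and Mmp13. Genes at 5 FPKM or more in dermis had an epidermal level of a median 2.02% of the dermal one in WT ear (25 genes). It was 1.99% in Koa ear (27 genes) and 4.26% in dorsal skin (21 genes), against 0.208%, 0.215% and 0.517% for fibroblast markers. This choice by dermal level leaves out Mmp15 and Mmp28 and favours low percentages, so these medians are no evidence for the layer difference. The fibroblast markers were not chosen by that level.

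Genes that act with these proteases were also mostly dermal. From a list of 28 activators, other inhibitors and partner proteases, 16 of 26 were higher in WT ear dermis than epidermis and 1 lower. In dorsal skin 18 were higher and 1 lower, and in Koa ear 15 were higher and 0 lower. All 14 matrix substrates listed, among them Dcn, Bgn, Lum and Eln, were higher in WT ear dermis, with a median difference of 6.34.

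Summed over the family, Timp levels were 1525 FPKM in WT ear dermis, 1294 in Koa ear dermis, 884 in dorsal dermis and 1014 in tail dermis. The Mmp sums were 1389, 1566, 1274 and 1508. The ratio of Timp to Mmp was thus 1.10 in WT ear dermis, 0.826 in Koa ear dermis, 0.694 in dorsal dermis and 0.672 in tail dermis. In epidermis the Mmp sums were 149, 203 and 72.1 FPKM and the Timp sums 62.6, 84.1 and 127, so the ratio was 0.421 in WT ear, 0.414 in Koa ear and 1.76 in dorsal skin. The order of dorsal and WT ear skin was therefore opposite in the 2 layers. The sums rest on few genes, since the top 3 of the 51 made up 50.3% to 72% of all FPKM of the families in a library. The Adamts sum was 971 FPKM in tail dermis and between 376 and 394 in the other dermal libraries.

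**Figure D2:**
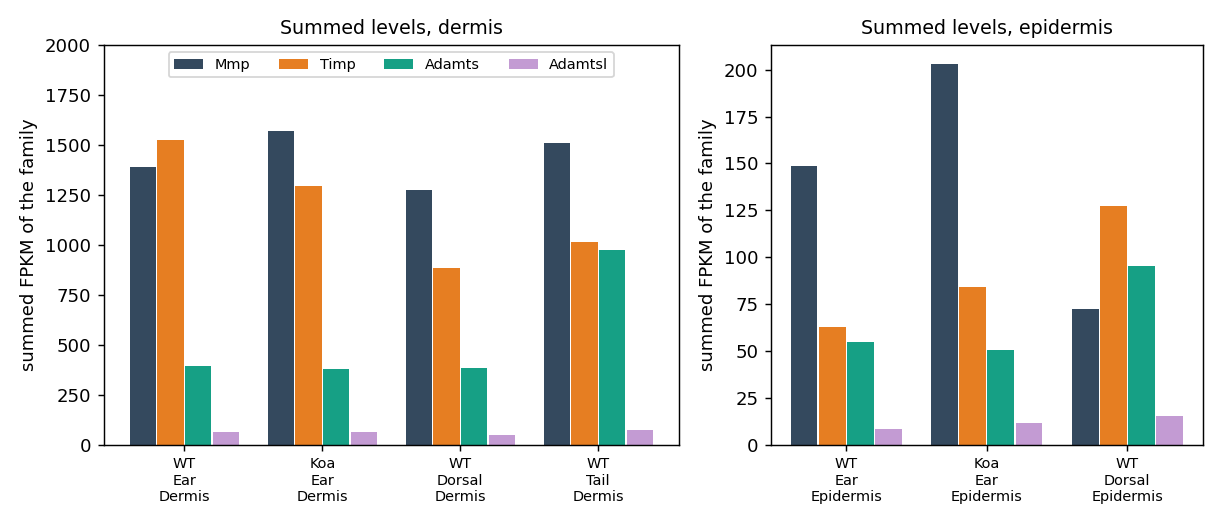
Bars give the summed FPKM of the Mmp, Timp, Adamts and Adamtsl genes in each library (left, 4 dermal libraries; right, 3 epidermal libraries on a smaller scale; 1 library per group, no error). WT ear dermis is the dermal library with the Timp bar above the Mmp bar, and dorsal epidermis is the epidermal one.

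Between dorsal and WT ear dermis, the inhibitors Timp3 and Timp4 and a set of Adamts genes were lower in dorsal skin, and Mmp9 and Adamts4 were higher. Of 37 genes past the filter, 2 were higher and 10 lower. Of all genes, 11.7% were higher and 7.05% lower. The median was -0.19 beside -0.05 for all genes. Mmp9 (chr2:164940326-164955850) was 10.1 times higher in dorsal dermis, with an exact 95% interval for counting error alone of 8.78 to 11.6. Adamts4 (chr1:171250129-171262267) was 7.18 times higher (6.18 to 8.35). Timp3 (chr10:86300412-86349505) had a dorsal over ear ratio of 0.169 (0.166 to 0.172), a difference of -2.55. These intervals cover no variation between animals.

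The other genes lower in dorsal dermis were Adamts3 at -2.92, Adamtsl3 at -2.31, Adamts15 at -1.59, Adamts9 at -1.54, Timp4 at -1.34, Adamts17 at -1.26, Adamts6 at -1.24, and Mmp16 and Adamts14 at -1.09 each. With a pseudocount of 5, 4 genes in all were lower (Adamts3, Timp3, Adamtsl3 and Adamts15) and the other 6 fell short of the threshold. Of the procollagen N-proteinases 2 of 3 were lower, of the Timps 2 of 4, and of the proteoglycan-cleaving Adamts 2 of 7 were lower and 1 higher. Matrix substrates were lower too, at 7 of 14 with a median of -1.04. Comp stood at 1.86 FPKM against 102, Col2a1 at 0.255 against 15.1, Acan at 1.04 against 18.8 and Bgn at 365 against 1136. Of the activators and partners 3 of 26 were higher and 4 lower, with a median of 0.03. The plasminogen activator Plat stood at 76.8 FPKM against 16.6, and Plau, another, at 68.7 against 27.9. Reck, a membrane-bound inhibitor of Mmp enzymes, stood at 16.9 against 64.3.

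Several marker lists differed between the same 2 libraries. Cartilage markers were lower in dorsal dermis at 10 of 11 (median -3.42, summed level 36.9 against 892 FPKM, none at 0). Basal keratinocyte markers were higher at 8 of 8 (median 2.43, 6387 against 775 FPKM), and stress and immediate early genes at 12 of 12 (median 3.50, 6367 against 555 FPKM). Fibroblast markers were lower at 3 of 8 and higher at 2 of 8, with a median of -0.88. Neutrophil markers were higher at 2 of 5 (100.2 against 49.7 FPKM), and mast cell markers lower at 6 of 7 (85.4 against 462 FPKM). Suprabasal keratinocyte markers were higher at 7 of 7 (2544 against 203 FPKM), growing hair follicle markers at 11 of 12 (50.8 against 5.97 FPKM) and T cell markers at 3 of 4 (284 against 226 FPKM). Pericyte and smooth muscle markers were higher at 3 of 6 and lower at 2 of 6 (281 against 178 FPKM). Their part in the differences above was not tested. After 37.7% of the epidermal level was taken from dorsal dermis and 7.16% from ear dermis, the counts were again 2 higher and 10 lower. Of all genes, 4.94% were then higher and 31.0% lower, and Timp3 differed by -3.20. The remainder was not scaled up for the share taken out. The subtraction therefore cannot decide the part of epidermal RNA in the genes called lower.

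In tail dermis Adamts4 had the widest difference from WT ear dermis. Of the proteoglycan-cleaving Adamts, 2 of 7 were past the threshold, Adamts4 and Adamts1. Of 39 genes past the filter 9 were higher than in WT ear dermis and 7 lower. Of all genes 6.32% were higher and 27% lower, so the whole library lay low, with a median of -0.51 over all genes and 0.36 over the 39. Centred on that median, 19 were higher and 4 lower, where 13.2% and 12.3% of all genes were, and the median of the 39 was 0.87. Adamts4 stood at 184 FPKM against 1.36, a difference of 6.29. Mmp11 differed by 2.52, Adamts18 by 2.21, Adamts1 by 1.88, Adamts10 by 1.80, Mmp23 by 1.72, Adamts7 by 1.42, Timp1 by 1.35 and Adamtsl4 by 1.10.

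Lower in tail dermis were Adamts3 at -2.56, Timp3 at -2.34, Timp4 at -1.97, Mmp27 at -1.82, Adamtsl3 at -1.36, Adamtsl2 at -1.31 and Mmp3 at -1.31. After centring, Adamtsl3, Adamtsl2 and Mmp3 were no longer past the threshold, and with a pseudocount of 5 neither were Adamts18, Adamts7, Adamtsl4 and Adamtsl2. Of the activators and partners, Ctss stood at 10.2 FPKM against 276, Hpse at 2.85 against 17.0 and Adam33 at 25.4 against 6.93. Of the matrix substrates Vcan was higher, at 61.4 against 19.9 FPKM, and 4 of 14 were lower. Stress and immediate early genes were higher at 12 of 12 (14271 against 555 FPKM), cartilage markers lower at 11 of 11 (11.3 against 892 FPKM, Matn1 at 0), and myeloid markers lower at 5 of 7 (82.6 against 1025 FPKM). Basal keratinocyte markers were lower at 6 of 8 (131 against 775 FPKM), suprabasal ones lower at 4 of 6 and higher at 1 (142 against 203 FPKM), and neutrophil markers lower at 3 of 5 (12.4 against 49.7 FPKM). Endothelial markers were higher at 3 of 6 (66.7 against 25.9 FPKM), pericyte and smooth muscle markers at 3 of 6 (411 against 178 FPKM) and growing hair follicle markers at 3 of 6 (26.5 against 5.97 FPKM). T cell markers were lower at 3 of 4 and higher at 1 (441 against 226 FPKM), and mast cell markers lower at 3 of 7 and higher at 1 (451 against 462 FPKM). The part of these lists was not tested. The tail library also differed from WT ear dermis in table format and in the sex-linked genes Xist and Ddx3y. In these tail differences, body position cannot be told apart from sex of the animals or table format. Timp1, higher in tail, lies on chromosome X. The dorsal and tail comparisons share the WT ear dermis library.

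**Figure D3:**
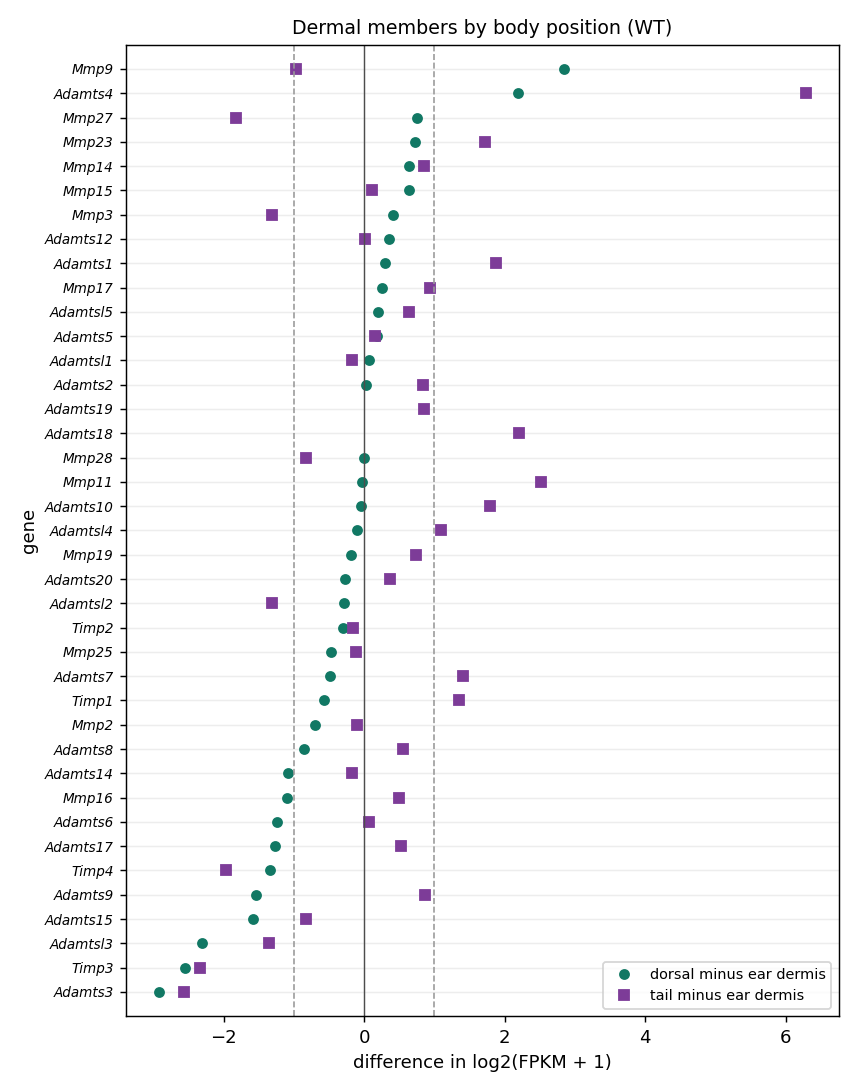
Each point is the difference in log2(FPKM + 1) of 1 gene against WT ear dermis, for dorsal (circles) and tail (squares) dermis, with dashed lines at -1 and 1. Adamts3 and Timp3 lie at the low end in both, and the tail point of Adamts4 lies furthest right at 6.29.

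In epidermis the position difference was led by Mmp3, stromelysin 1, a protease with broad substrates that also activates other proenzymes. Mmp3 stood at 45.0 FPKM in WT ear, 90.3 in Koa ear and 4.13 in dorsal epidermis, and at 116, 142, 155 and 46.5 in dermis. The dorsal over WT ear ratio was 0.0919 (0.0794 to 0.106), a difference of -3.16, whereas in dermis Mmp3 differed by 0.41. Of 14 genes past the filter 2 were lower in dorsal epidermis (Mmp3 and Mmp2, the latter at -1.20) and 3 higher. Of all genes 5.47% were lower and 11.5% higher, and the medians were -0.16 for the 14 and -0.02 for all genes. The 3 higher were Adamts1 at 1.05, Adamtsl4 at 1.04 and Timp3 at 1.03. With a pseudocount of 5 none of these 3 was past the threshold.

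Of the low neighbours of Mmp3 on chromosome 9, the stromelysin Mmp10 and the collagenases Mmp13 and Mmp1b also had higher values in ear than in dorsal epidermis. Mmp10 stood at 0.574 and 1.53 FPKM in WT and Koa ear epidermis, at 0.105 in dorsal epidermis and at no more than 0.167 in dermis. Mmp13 stood at 0.651, 1.07 and 0.141 in epidermis and at no more than 0.260 in dermis. Mmp1b stood at 0.842, 0.803 and 0.0176 in epidermis and at no more than 0.0172 in dermis. All 3 had higher values in both ear epidermal libraries than in any of the other 5. The dorsal over WT ear ratios in epidermis were 0.182 (0.0558 to 0.468) for Mmp10, 0.216 (0.104 to 0.420) for Mmp13 and 0.0209 (0.000753 to 0.179) for Mmp1b. These genes were named for this pattern after their values were seen. Most of their values lie below the low-value filter, and reads of Mmp1b can be shared with its close copy Mmp1a and with Mmp12, whose exons overlap it on the other strand.

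The rest of the cluster had other patterns. Mmp27 was dermal, as given above. Mmp12, macrophage elastase, stood at 0.371, 1.33, 0.445 and 0.0400 FPKM in dermis and did not exceed 0.0654 in epidermis. Mmp8, neutrophil collagenase, stood at 0.501, 0.775, 0.481 and 0.0900 in dermis and at no more than 0.239 in epidermis. Within dermis, both Mmp12 and Mmp8 were lowest in tail, where myeloid markers summed to 82.6 FPKM against 1025 in WT ear. Both were highest in Koa ear dermis, where myeloid markers summed to 762 FPKM, less than in WT ear. Neutrophil markers summed to 49.7 FPKM in WT ear, 29.3 in Koa ear, 100.2 in dorsal and 12.4 in tail dermis. The part of these markers was not tested. Mmp1a did not exceed 0.0905 FPKM, Mmp20 was at 0.0201 in dorsal dermis and listed at 0 elsewhere, and Mmp7 was listed at 0 throughout.

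**Figure D4:**
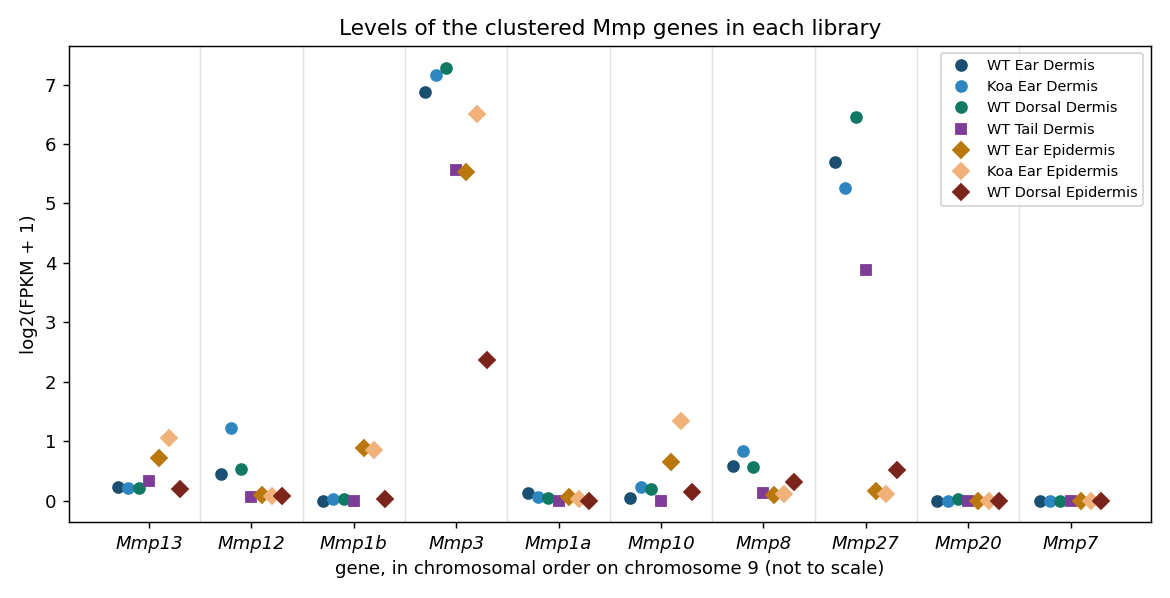
Levels as log2(FPKM + 1) of the 10 clustered Mmp genes, in chromosomal order, with 1 symbol per library. Mmp3 is high in all libraries but dorsal epidermis, Mmp27 is high in dermis only, and Mmp13, Mmp1b and Mmp10 are highest in the 2 ear epidermal libraries.

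Stress and immediate early genes were higher in dorsal than in WT ear epidermis at 12 of 12 (median 3.32, 12010 against 960 FPKM, none at 0), and Fos stood at 1905 FPKM against 141. Of the activators and partners 4 of 19 were higher and 1 lower (median 0.10), with Plat at 39.1 FPKM against 5.45 and Tll1 at 0.728 against 5.17. Fibroblast markers were higher at 3 of 6 (57.0 against 33.6 FPKM), growing hair follicle markers at 7 of 14 (83.8 against 38.3 FPKM) and suprabasal keratinocyte markers at 4 of 7 (7146 against 4618 FPKM). Neutrophil markers were higher at 3 of 4 (18.5 against 7.32 FPKM), T cell markers at 2 of 3 (72.9 against 38.1 FPKM) and pericyte and smooth muscle markers at 2 of 3 (19.6 against 11.9 FPKM). Their part in the position differences was not tested.

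Between Koa and WT ear dermis 2 of 38 genes were higher, Mmp11 and Adamts4, and 0 were lower. Of all genes 1.71% were higher and 1.07% lower, and the medians were 0.13 for the 38 and -0.00 for all genes. Mmp11 (chr10:75923221-75932502) stood at 15.3 FPKM in Koa and 5.57 in WT, a ratio of 2.75 (2.45 to 3.08). Adamts4 stood at 4.33 against 1.36, a ratio of 3.18 (2.71 to 3.74). The partner overlapping Mmp11 on the other strand, Chchd10, was at 3.36 against 3.84 FPKM. With a pseudocount of 5 neither gene was past the threshold.

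Just under the threshold were Adamts17 at 0.92, Adamts10 at 0.91, Mmp16 at 0.83 and Mmp12 at 0.76. Their Koa over WT ratios were 2.09 (1.94 to 2.26) for Adamts17, 1.93 (1.83 to 2.03) for Adamts10, 2.01 (1.82 to 2.23) for Mmp16 and 3.58 (2.65 to 4.89) for Mmp12. Among abundant genes Mmp14 had a ratio of 1.46 (1.43 to 1.48) and Mmp2 of 1.04 (1.03 to 1.05). The Timps had ratios under 1 in dermis, none past the threshold. Timp1 had 0.733 (0.638 to 0.843), Timp2 0.905 (0.898 to 0.913), Timp3 0.752 (0.744 to 0.759) and Timp4 0.931 (0.873 to 0.992). The 2 genes on chromosome 15, which carries the inversion, were Adamts12, with a ratio of 1.56 (1.49 to 1.64), and Adamts20, with 1.08 (0.905 to 1.29).

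None of the 26 activators and partners nor of the 14 matrix substrates was past the threshold in Koa dermis (medians -0.06 and 0.21). Growing hair follicle markers were higher in Koa ear dermis at 9 of 11 (62.5 against 5.97 FPKM; Krt31, Krt33a and Shh at 0 in WT) and basal and suprabasal keratinocyte markers at 4 of 8 (1930 against 775 FPKM) and 4 of 7 (610.3 against 203 FPKM). Mast cell markers were lower at 5 of 7 (159 against 462 FPKM) and myeloid markers at 1 of 7 (762 against 1025 FPKM). Neutrophil markers were past the threshold at 0 of 5 (29.3 against 49.7 FPKM). The part of these marker lists in the differences was not tested. After 10.7% of the epidermal level was taken from Koa and 7.16% from WT dermis, Mmp11 and Adamts4 differed by 1.31 and 1.18, as before. Their epidermal values were low, at 1.28 (Koa) and 0.751 FPKM (WT) for Mmp11 and 0.0407 and 0.0214 for Adamts4. The subtraction could therefore hardly change either gene and is no test of epidermal RNA.

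Between Koa and WT ear epidermis 0 of 17 genes were higher and 0 lower, where 2.15% and 0.854% of all genes were. The median was 0.33 beside -0.01 for all genes. Mmp3 lay just under the threshold at 0.99, with a ratio of 2.01 (1.92 to 2.10). Adamtsl4 differed by 0.73, with a ratio of 2.01 (1.74 to 2.33), and Mmp10 by 0.69, with a ratio of 2.67 (1.78 to 4.10). Mmp2 was the lowest at -0.61, with a ratio of 0.642 (0.607 to 0.679). Unlike in dermis, Timp2 and Timp3 had ratios above 1, at 1.51 (1.44 to 1.59) and 1.26 (1.22 to 1.30). Timp1 and Timp4 lay below the low-value filter. Growing hair markers were higher in Koa epidermis at 10 of 13 (206 against 38.3 FPKM), and neutrophil markers at 1 of 3 (24.4 against 7.32 FPKM). Their part was not tested. Stress and immediate early genes were past the threshold at 0 of 12.

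**Figure D5:**
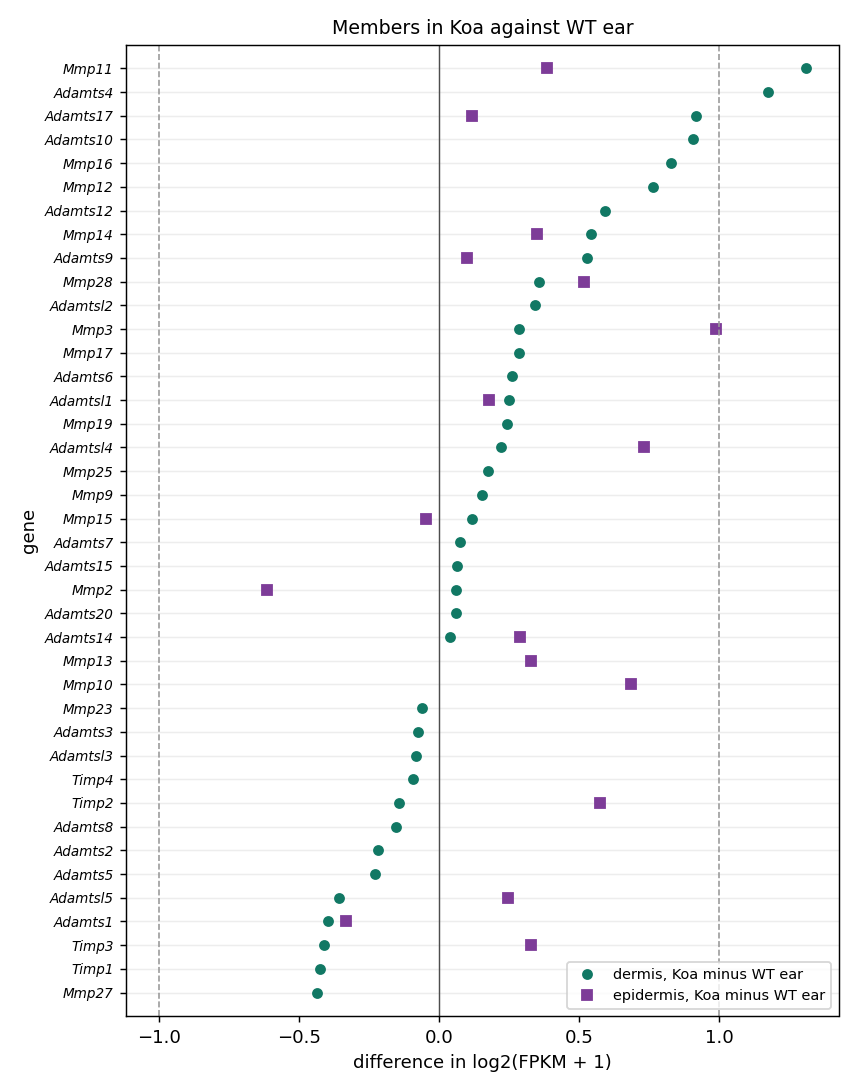
Each point is the difference in log2(FPKM + 1) of 1 gene, Koa minus WT ear, in dermis (circles) and epidermis (squares), with dashed lines at -1 and 1. Mmp11 and Adamts4 are the 2 points beyond a line, and the epidermal point of Mmp3 lies at 0.99.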

How the data were processed

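The authors deposited FPKM per gene symbol in 1 table of 7 libraries. TopHat2 2.0.13 and Cufflinks 2.2.1 are named, per the submitters' processing notes, with the builds GRCm38 and mm9. The role of each build, the gene annotation and any use of strand are not given in the sources used here. Col1a1, Col1a2 and Col3a1 were left out, since they are listed at 0 in dermal libraries. The 51 genes and the gene lists were chosen with earlier results of these data known.

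Differences were taken with a pseudocount of 1 and called at 1 or more. Genes at 5 FPKM or more in some library were given with all values. Others were named when past the threshold, with low values of the chromosome 9 cluster added. From context lists up to 4 genes with the widest differences were named, and some that this rule gives are not reported here. Alternatives were a pseudocount of 0.1 or 5, no filter or one at 5 FPKM, centring on the median of all genes, and, chosen after seeing the data, subtraction of the epidermal share.

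Depth was recovered from 2137 genes with 1 transcript (length offset 200 nt). Of the low values, 71.7% to 75.9% lay within 0.05 of a whole fragment, against 10% by spacing alone. The fragments behind the exact (Clopper-Pearson) intervals are estimates from the longest transcript. The recovery of depth and the calls at the threshold were tested on simulated data, and the intervals were not. Exons of 13 of the 51 genes overlap another gene on the opposite strand. Positions and windows are from RefSeq (GRCm38.p6). All 51 genes matched there by symbol for position, and 36 had a window. Python 3.11.15, pandas 2.3.3, numpy 2.4.6, scipy 1.17.1 and matplotlib 3.10.9 were used. The series' histone mark, CTCF and chromatin contact data were not used here.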

Additional observations from a re-analysis of the deposited data

Results flagged for a closer look

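Timp3 differed in opposite directions between layers. From WT ear to dorsal skin the difference in log2(FPKM + 1) was -2.55 in dermis (539 to 91.1 FPKM) and 1.03 in epidermis (43.2 to 89.5 FPKM), which are -3.59 apart. Of the 14 genes past the filter in both layers, only Timp3 was past the threshold in both. The difference between the layers was not tested, with 1 library per group.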

How the results depend on the processing

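Of 84 counts of genes compared with an alternative, 73 stayed within 1.5 times and 11 did not. With a pseudocount of 0.1, 4 genes were higher in Koa than in WT ear dermis (2 as reported), 2 in Koa than in WT ear epidermis (0), and 1 was lower in dorsal dermis than epidermis (0). With a pseudocount of 5, 0 were higher in Koa ear dermis, 4 lower in dorsal than in ear dermis (10), 0 higher in dorsal than in ear epidermis (3), 1 lower in WT ear dermis than epidermis (2) and 1 lower in Koa ear dermis than epidermis (3). With a filter at 5 FPKM, 1 was higher in Koa ear dermis. Centred on the median of all genes, 19 were higher and 4 lower in tail than in ear dermis (9 and 7). Of 121 calls of a gene in a comparison, the alternatives gave 595 values, 551 still past the threshold, 41 lost at a pseudocount of 5, 3 lost by centring and 0 reversed. A pseudocount of 5 shrinks differences of low genes by construction. Subtracting the epidermal share kept all 14 calls it was run on, but the remainder was not scaled up. Genes nearly absent from epidermis could hardly change under it. No replicate could be left out. No paired analysis was possible because the groups compared share 1 replicate number, given in accession order. A comparison of layers over the 3 matched dermal and epidermal pairs, which would take positions and genotypes as replicates, was not run. Depth limits the genes under 1 FPKM most, and the tail library gives no depth.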
